A study of Homo sapiens with 16 samples.

Results

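The mRNAs described here encode the nuclear parts of 3 enzymes of the mitochondrial inner membrane: respiratory complex III, respiratory complex IV and ATP synthase. Members were chosen by gene symbol alone, as genes whose symbol starts with UQCR or is CYC1 (complex III, 10 genes), starts with COX, a digit from 4 to 8 and a letter (complex IV, 11 genes), or starts with ATP5 and a letter (ATP synthase, 19 genes). This gave 40 of the 13148 genes in the deposited table. The cells were 293S, an established human line of the HEK293 family, grown as an adherent layer. One culture condition was untreated and the other received 1 mM sodium arsenite, an oxidative agent that reacts with thiols, for 30 minutes. RNA of each condition was separated on sucrose according to the size of the particle an RNA belongs to, and 8 fractions of each gradient were sequenced, with 1 library per fraction. None of the 16 libraries has a replicate. Differences are therefore given without a p-value and could not be set against a spread between replicates. By its title the series is about Argonaute 2 and mRNAs in stressed cells, and the gradients place each mRNA with and without arsenite.

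Each deposited value says how much of an mRNA's total was found in 1 fraction of its gradient. The 8 shares of a gradient add up to 100%, so they tell neither how abundant an mRNA was nor how many reads lie behind a share. For the same reason the identity of the cells could not be checked against marker genes. Position means the average fraction number of an mRNA with its shares as weights, and the relative shift is the change of position with arsenite less that of the median gene. An mRNA counts as moved lower or higher if the relative shift reached 0.5 fractions either way and its sign survived the removal of any 1 fraction number from both gradients. Whether fraction 1 was the top or the bottom of the gradient is not in the labels. Of the 40 members, 39 had a value above 0 in all 16 libraries, and ATP5L2 was listed at 0 in 6.

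Complex III passes electrons from ubiquinol to cytochrome c, complex IV passes them on to oxygen, and both pump protons across the inner membrane. ATP synthase lets the protons flow back and uses that flow to make ATP. A few subunits of each complex are made inside mitochondria from mitochondrial DNA, and these are not analysed here. All members are nuclear genes, whose mRNAs are translated in the cytosol before the proteins are imported. Most of these proteins are small.

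With arsenite the members collected in fraction 1. The median member had 4.44% of its total there in untreated cells and 54.5% with arsenite, against 3.47% and 9.41% for the median of all genes. Genes with short coding sequences were nearer to the members. Up to 300 nt the median arsenite share in fraction 1 was 54.7% for members and 46.4% for all genes. Above 300 and up to 600 nt it was 59.1% and 34.2%. Other families also had high medians, 60.3% for 37 complex I subunits, 45.0% for 76 mitochondrial and 41.5% for 73 cytosolic ribosomal proteins. Fraction 1 held 50% or more of the arsenite total in 23 of the 40 members (57.5%), against 6.08% of all genes. It was the largest arsenite fraction for 33 members, against 14.3% of all genes. In untreated cells no member had its largest share in fraction 1 or 2, which was also rare among all 13148 genes (163 and 306). The largest untreated share was in fraction 3 for 1 member, fraction 4 for 14, fraction 5 for 18, fraction 6 for 6 and fraction 7 for 1. Over all genes the counts for fractions 3 to 7 were 1408, 2706, 3760, 2845 and 1959. The median share in fractions 5 to 8 was 55.9% untreated and 4.00% with arsenite, against 53.9% and 16.4% over all genes.

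The median position of the members was 4.47 untreated, close to the 4.54 of all genes, and 1.90 with arsenite, against 3.10. The median relative shift was −1.07 fractions, with quartiles over members of −1.33 and −0.581. Of the 40 members 25 moved lower, against 24.0% of all genes, and 1 moved higher, against 23.6%. The other 14 met neither rule. Of these, 7 were lower by at least 0.5 fractions but changed sign without fraction 1, and 7 were under 0.5 in size. The sources used here do not state the scaling between fractions, which sets the common shift. This shift was −1.46 fractions for the median gene in the deposited shares and −0.228 after scaling the libraries by median-of-ratios size factors, so that the typical gene had a similar value in each of them. With size factors 19 members moved lower, against 26.4% of all genes, and none moved higher, against 28.7%. The median relative shift of the members was then −1.55. Fraction 1 then held 50% or more of the arsenite total in 32 members, against 10.3% of all genes, and was the largest fraction for 38, against 32.4%.

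**Figure D1:**
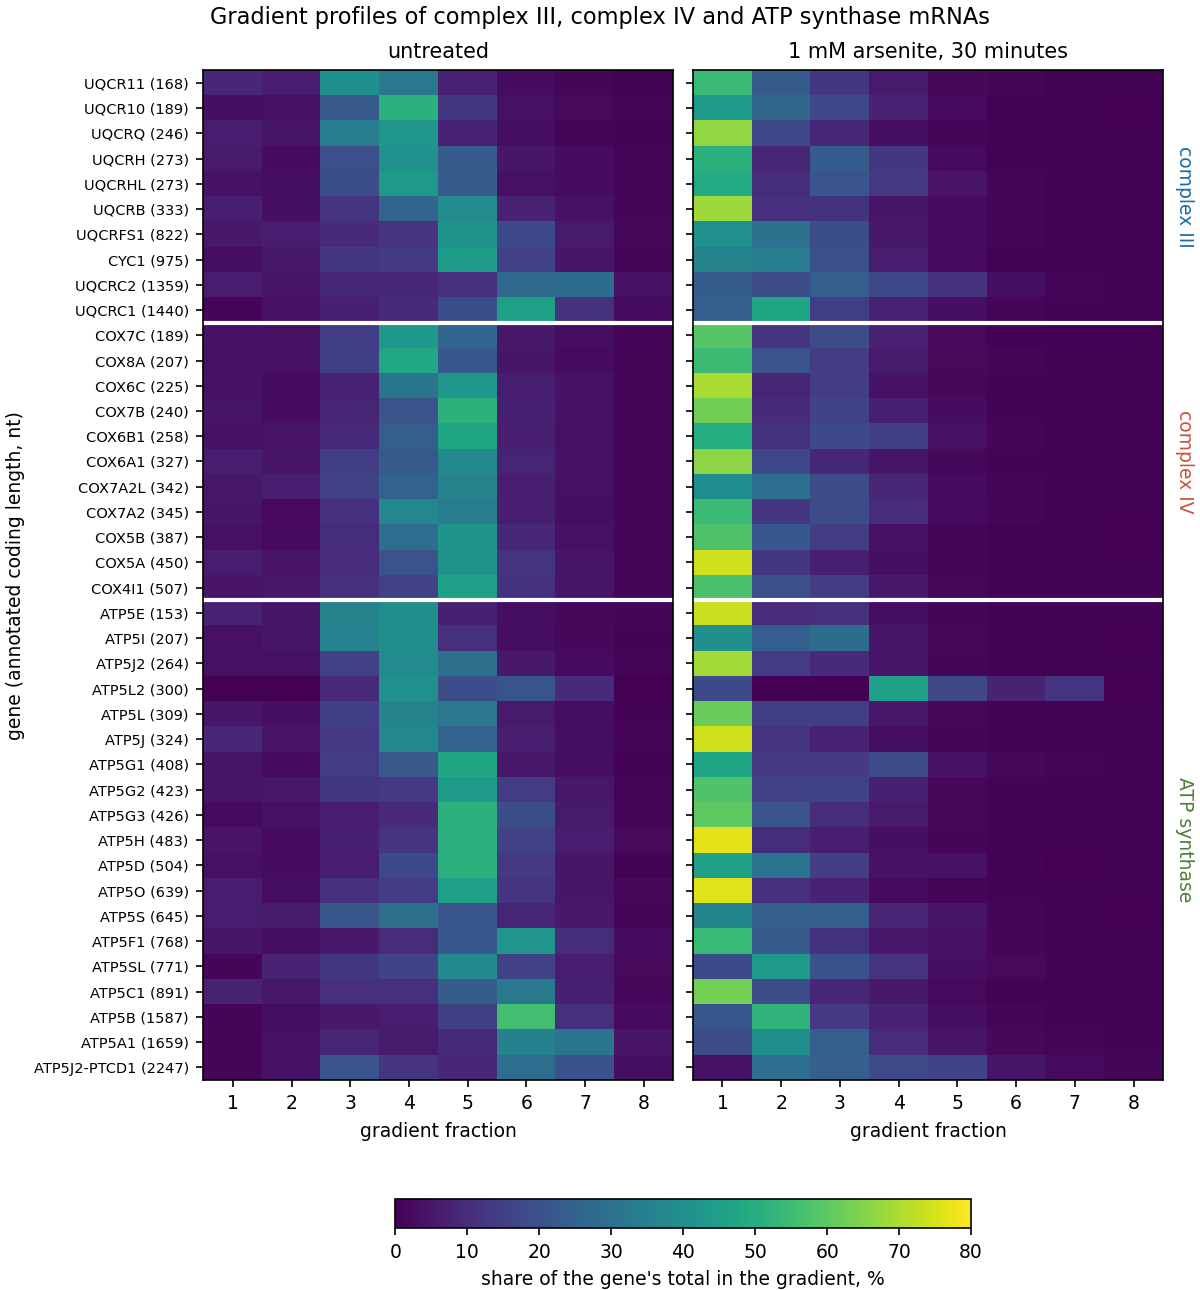
Share of each gene's total in each of the 8 fractions (colour, %), in untreated cells (left) and after 1 mM arsenite for 30 minutes (right), 1 library per column. Genes are grouped by complex and ordered by annotated coding length in nucleotides; in untreated cells the longer coding sequences lie at higher fraction numbers, and with arsenite fraction 1 is the largest fraction for 33 of the 40 genes.

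In complex III, the 4 genes for the catalytic and core proteins all moved lower, against 24.0% of all genes. Among the 5 genes for small subunits only UQCRB did (20%), which is near that background. CYC1 encodes cytochrome c1, the heme protein that hands electrons to cytochrome c. From fraction 1 to fraction 8 its untreated shares were 2.83, 5.06, 12.5, 13.6, 44.2, 15.5, 4.96 and 1.28%. With arsenite they were 35.9, 33.7, 19.97, 6.45, 2.35, 0.851, 0.475 and 0.313%. The untreated peak in fraction 5 was gone and fractions 1 and 2 held nearly equal shares. CYC1 lay at 4.64 untreated and at 2.12 with arsenite, a relative shift of −1.07 (−1.81 under size factors) and of −0.706 without fraction 1. UQCRFS1 encodes the Rieske iron-sulfur protein, the other catalytic subunit described here. Its shares were 5.42, 6.54, 9.50, 11.98, 41.5, 17.6, 5.74 and 1.67% untreated. They were 40.6, 29.8, 19.3, 5.51, 2.71, 1.07, 0.582 and 0.436% with arsenite. The profile was much like that of CYC1, with a peak in fraction 5 that gave way to fraction 1, and the relative shift was −1.09 (−0.714 without fraction 1).

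UQCRC1 and UQCRC2 encode the large core proteins and are the longest coding sequences of complex III. UQCRC1 had the lowest relative shift of the complex, −1.63. Its untreated shares were 1.01, 3.69, 7.07, 9.44, 19.4, 45.4, 11.8 and 2.23%. In the arsenite gradient they were 23.96, 47.5, 14.9, 7.62, 3.27, 1.35, 0.905 and 0.478%. The single large fraction moved from 6 to 2, and unlike in 33 of the 40 members the largest arsenite share was not in fraction 1. UQCRC2 was spread more widely with arsenite, with 23.3% in fraction 1, 24.02% in fraction 3 and 16.4% in fractions 5 to 8. That last share was close to the all-gene median of 16.4%, and the relative shift of UQCRC2 was −0.888.

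UQCRB encodes a small subunit that binds near the ubiquinone site. Untreated, its shares were 6.70, 3.39, 11.9, 26.1, 38.6, 7.81, 4.06 and 1.47%. Under arsenite the shares were 68.3, 10.6, 11.6, 4.88, 2.54, 0.961, 0.560 and 0.476%. Fraction 1 went from among the small shares to over 60% of the total. UQCRB moved lower, with a relative shift of −1.18. With size factors it was −1.62 but no longer met the rule, and without fraction 1 it was −0.0596. The remaining small subunits started at lower numbers. UQCR11, the smallest of them, had the relative shift nearest to 0 in the complex, −0.0742 (−0.420 under size factors), which turned to 0.550 without fraction 1. In untreated cells its shares were 9.34, 6.39, 40.3, 32.01, 7.33, 2.60, 1.43 and 0.594%. The arsenite shares were 54.6, 22.7, 12.9, 5.92, 1.85, 0.978, 0.598 and 0.433%. In both gradients nearly all of it lay in fractions 1 to 4. UQCRQ, UQCRH and UQCR10 had relative shifts of −0.546 (−1.16 under size factors), −0.434 (−1.01 under size factors) and −0.407 (−1.27 under size factors), and UQCR10 met the rule with size factors only. UQCRH encodes the acidic hinge protein, and UQCRHL is a copy of it elsewhere in the genome. UQCRHL lay at 4.05 and 2.22, against 4.04 and 2.15 for UQCRH. Reads may be shared between these near-identical genes, so the value of each is uncertain.

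Complex IV was the most uniform of the 3 complexes in untreated cells. Its coding lengths also varied least, from 189 to 507 nt. Those of complex III ran from 168 to 1440 nt and those of ATP synthase from 153 to 2247 nt. The 11 complex IV mRNAs lay between 4.10 and 4.56, a range of 0.458 fractions, whereas complex III spanned 1.99 and ATP synthase 2.17. With arsenite they lay between 1.49 and 2.21, and fraction 1 was the largest for all 11, with shares from 38.8% to 74.2%. In the deposited shares 7 of the 11 moved lower (63.6%), against 24.0% of all genes, and none moved higher, against 23.6%. With size factors 4 moved lower, against 26.4% of all genes. Without fraction 5 it was 3, a share near the 24.4% of all genes under that setting. Without fraction 1 it was 2, a share below the 21.0% of all genes under that setting. COX4I1 encodes a subunit at which ATP regulates the enzyme. Its untreated shares were 4.34, 5.22, 11.4, 15.8, 45.3, 11.8, 4.83 and 1.27%. After arsenite they were 56.96, 19.8, 14.4, 5.41, 1.74, 0.734, 0.515 and 0.374%. The largest share was in fraction 5 untreated and in fraction 1 with arsenite. The relative shift was −1.27 (−1.91 under size factors), and −0.511 without fraction 1.

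COX5A, whose product faces the matrix, had the lowest relative shift of complex IV in the deposited shares, −1.51. It was −2.09 with size factors and −0.472 without fraction 1, and under both COX5B was lower. Untreated COX5A had shares of 6.11, 4.29, 10.3, 20.6, 40.97, 12.003, 4.45 and 1.30%. With arsenite they were 74.2, 12.8, 7.15, 3.21, 1.37, 0.560, 0.375 and 0.313%. The share in fraction 1 was the highest of the complex. COX5B, which encodes the zinc-binding subunit, had a relative shift of −1.31 (−2.18 under size factors) and −0.602 without fraction 1. COX6A1 had one of −1.16, and −0.284 without fraction 1. COX6C, a small membrane-spanning subunit, had untreated shares of 4.06, 2.51, 8.02, 30.98, 42.3, 6.72, 3.91 and 1.46%. In the arsenite gradient they were 69.8, 8.71, 14.4, 3.91, 1.62, 0.727, 0.456 and 0.397%. In this gradient fraction 3 held more than fraction 2, and the relative shift was −1.38 (−2.14 under size factors). In COX7B fraction 3 also held more than fraction 2, with 62.5%, 9.62% and 16.4% in arsenite fractions 1, 2 and 3 and a relative shift of −1.26 (−1.93 under size factors). Without fraction 1 COX6C and COX7B lay at −0.183 and −0.171, both under the threshold. With size factors COX6A1 (−1.58) and COX6C no longer met the rule, because their sign then turned with a fraction left out.

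The 4 complex IV mRNAs that met neither rule were COX7A2 (relative shift −0.828), COX7C (−0.813), COX6B1 (−0.799) and COX8A (−0.771). Each encodes a small subunit, and each had a relative shift above 0 without fraction 1 (0.0468, 0.157, 0.0964 and 0.0106). Fraction 1 held 49.6% to 58.7% of their arsenite totals, and leaving it out removes that part by construction. With size factors their relative shifts were −1.46, −1.52, −1.30 and −1.38. COX6B1 kept 15.2% of its total in arsenite fraction 4, the highest such share of complex IV, where the median of the 39 members with no 0 was 5.88%. COX7A2L encodes a protein that helps join complexes III and IV into supercomplexes. It had the relative shift nearest to 0 in the complex, −0.590 (−0.934 under size factors). In untreated cells its shares were 5.31, 6.84, 15.5, 25.1, 35.7, 6.63, 3.64 and 1.31%. Under arsenite the shares were 38.8, 29.3, 18.5, 8.53, 2.67, 1.07, 0.629 and 0.542%. It had the smallest arsenite fraction 1 share of complex IV and the largest in fraction 2. It moved lower, but not with size factors, nor past 0.5 without fraction 1 (−0.194) or fraction 5 (−0.129).

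**Figure D2:**
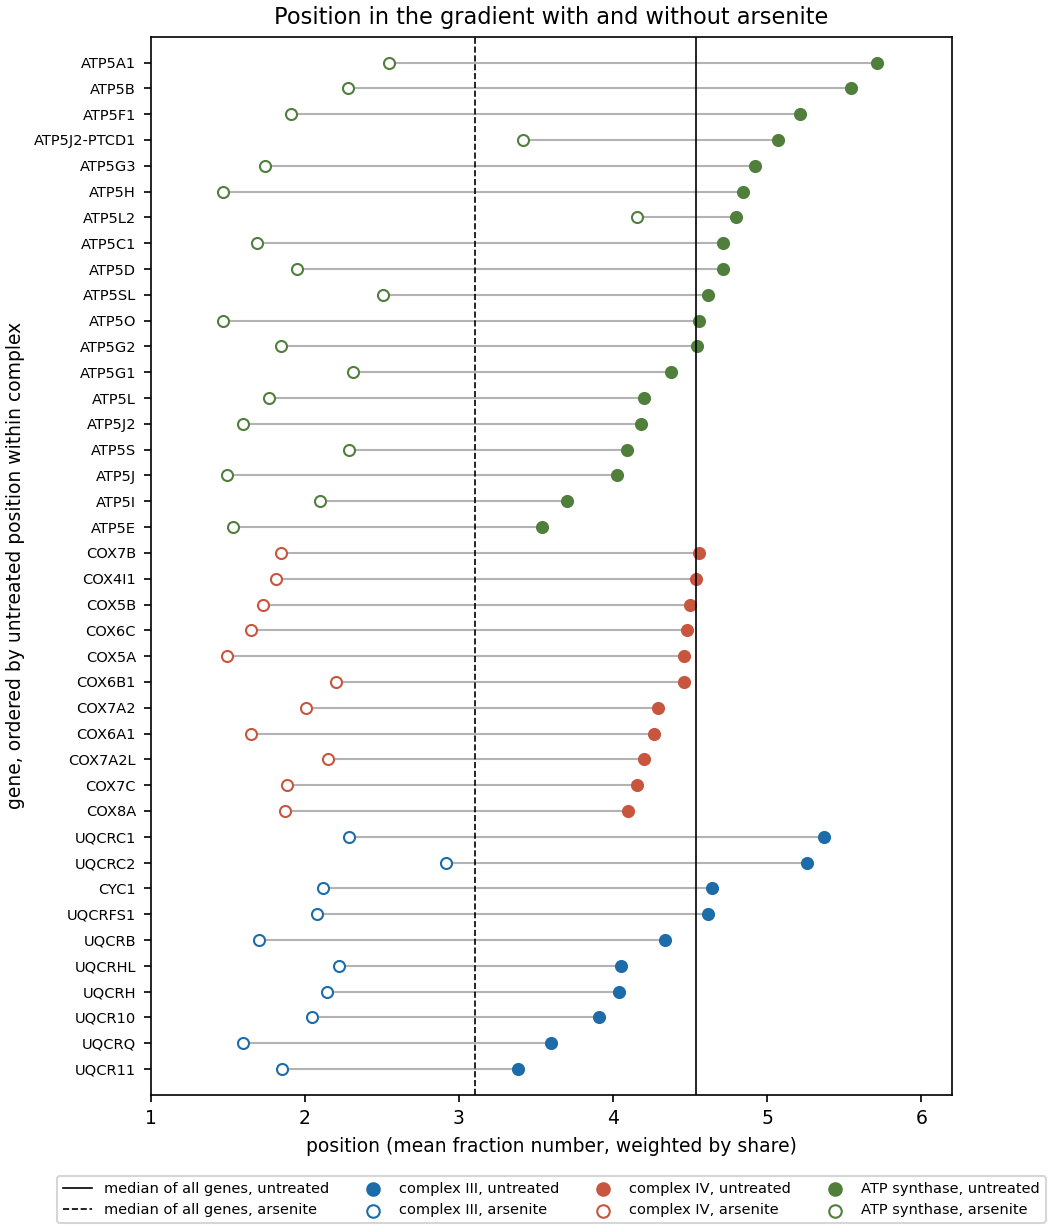
Position of each of the 40 mRNAs (mean fraction number) in untreated cells (filled) and with arsenite (open), by complex, 1 library per fraction. Lines mark the medians of all 13148 genes, 4.54 untreated and 3.10 with arsenite. Every open point lies left of its filled point, as it would for 12920 of all genes. Of the 40 open points 38 lie left of the arsenite median.

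ATP synthase consists of a catalytic head, a rotating ring of c subunits in the membrane, and a peripheral stalk that holds the head in place. Of its 19 members 13 moved lower (68.4%), against 24.0% of all genes, and ATP5L2 moved higher. With size factors 10 moved lower, against 26.4% of all genes. Without fraction 1 it was 9, against 21.0%, and without fraction 5 it was 9, against 24.4%. In the deposited shares head and stalk mRNAs had the lowest relative shifts, with medians of −1.57 over 5 head genes and −1.74 over 4 stalk genes. Of the head genes 4 moved lower, and of the stalk genes all 4 did. ATP5A1 and ATP5B encode the alpha and beta subunits that form the catalytic sites. The untreated shares of ATP5A1 were 1.56, 3.62, 8.47, 5.68, 9.71, 35.2, 31.5 and 4.29%. The arsenite shares were 18.8, 39.5, 23.8, 10.04, 4.56, 1.67, 1.01 and 0.685%. It lay furthest along of all members in untreated cells, at 5.71, and at 2.55 with arsenite. The untreated shares of ATP5B were 1.37, 2.84, 5.41, 6.07, 15.1, 55.9, 11.1 and 2.28%. After arsenite they were 21.4, 51.96, 13.2, 7.95, 2.87, 1.35, 0.763 and 0.451%. As for UQCRC1, the large fraction moved from 6 to 2. The relative shifts of ATP5A1 and ATP5B were −1.71 and −1.80, and without fraction 1 they were −1.59 and −1.67.

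ATP5C1, which encodes the rotating gamma subunit of the head, had a relative shift of −1.57 (−0.865 without fraction 1). ATP5D, the delta subunit, had one of −1.31 (−0.807). ATP5E encodes the epsilon subunit and has the shortest coding sequence of all members. It went from 35.7% in fraction 3 and 39.2% in fraction 4 to 73.5% in fraction 1. Its relative shift was −0.552 (−1.16 under size factors), but 0.558 without fraction 1, and it met neither rule.

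ATP5H encodes stalk subunit d and had the lowest relative shift of all 40 members in the deposited shares, −1.91. Without fraction 1 it was −0.684, above that of several members, ATP5B among them. Untreated ATP5H had shares of 4.16, 2.20, 7.02, 12.1, 50.8, 15.7, 6.03 and 1.99%. With arsenite they were 76.6, 10.6, 6.82, 3.28, 1.22, 0.647, 0.436 and 0.360%. Its fraction 1 share was the highest of any member, and the shares of the other 7 arsenite fractions fell steadily from fraction 2 to fraction 8. ATP5O, which encodes the stalk protein OSCP that confers sensitivity to oligomycin, had 76.2% in arsenite fraction 1 and a relative shift of −1.63. ATP5J, the coupling factor 6 gene, had 74.4% and −1.07. Both lost the call with size factors (−2.22 and −1.47), and without fraction 1 they lay at −0.513 and −0.104. ATP5F1, stalk subunit b, lay at 5.21 and 1.91, a relative shift of −1.85 (−1.14 without fraction 1).

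The c subunit is encoded by 3 genes, ATP5G1, ATP5G2 and ATP5G3, whose products differ in the targeting part that is removed at import. The annotated proteins have 136, 141 and 142 residues, and the last 77 residues, which hold the mature subunit, are identical. The coding bases of that shared part are shown because the same protein is spelled differently in each mRNA, so that reads of the 3 genes differ in sequence there. They are given 5′ to 3′ without the stop codon, with capitals where the 3 genes do not all have the same base.
ATP5G1: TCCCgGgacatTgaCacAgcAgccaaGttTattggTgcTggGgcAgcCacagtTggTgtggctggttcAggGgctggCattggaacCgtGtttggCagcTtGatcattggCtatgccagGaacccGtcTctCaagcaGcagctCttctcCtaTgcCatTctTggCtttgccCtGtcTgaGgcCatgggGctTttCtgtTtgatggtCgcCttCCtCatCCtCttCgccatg
ATP5G2: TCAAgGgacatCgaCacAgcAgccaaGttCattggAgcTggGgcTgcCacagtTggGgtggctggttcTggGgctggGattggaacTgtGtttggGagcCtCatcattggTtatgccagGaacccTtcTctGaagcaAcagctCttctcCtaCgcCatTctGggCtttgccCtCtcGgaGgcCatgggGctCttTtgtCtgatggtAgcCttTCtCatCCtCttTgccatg
ATP5G3: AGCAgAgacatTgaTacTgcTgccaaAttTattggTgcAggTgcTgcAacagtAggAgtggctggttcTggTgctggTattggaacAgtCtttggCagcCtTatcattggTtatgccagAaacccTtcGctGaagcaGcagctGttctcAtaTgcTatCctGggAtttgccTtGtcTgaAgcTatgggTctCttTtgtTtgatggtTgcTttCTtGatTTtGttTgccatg
The sequences are from GENCODE release 29 transcripts on GRCh38, a different build from the one the authors used. They span chr17:48895216-48895766 on the plus strand, chr12:53665317-53669266 on the minus strand and chr2:175178291-175179175 on the minus strand, introns included, and are exonic coding sequence. Of the 231 bases 57 differ among the genes, and 49 of these are at the last base of a codon. ATP5G1 and ATP5G2 share 88.3% of the bases, and ATP5G3 shares 80.1% with each of them.

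These 3 mRNAs have coding lengths within 18 nt of each other, and all had their largest untreated share in fraction 5. The untreated shares of ATP5G3 were 2.401, 3.64, 6.53, 9.53, 51.4, 19.4, 5.78 and 1.38%. In the arsenite gradient they were 60.04, 20.5, 10.5, 5.80, 1.70, 0.722, 0.391 and 0.362%. Among the c-subunit genes it went furthest, from 4.92 to 1.74. The untreated shares of ATP5G2 were 4.60, 5.15, 12.99, 13.7, 43.4, 13.8, 5.03 and 1.30%. Under arsenite the shares were 58.1, 15.6, 15.98, 7.01, 1.84, 0.793, 0.367 and 0.355%. It lay at 4.54 and 1.85, between the others. The untreated shares of ATP5G1 were 4.67, 2.79, 13.8, 22.2, 47.2, 5.23, 3.34 and 0.791%. The arsenite shares were 46.98, 13.7, 13.4, 18.5, 3.93, 1.81, 1.07 and 0.597%. ATP5G1 kept more in fraction 4 than in fractions 2 or 3, which neither of the other two did, and lay at 4.38 and 2.31. The relative shifts were −1.72 (−2.61 under size factors) for ATP5G3, −1.24 (−1.94 under size factors) for ATP5G2 and −0.606 for ATP5G1, which met neither rule. Without fraction 1 they were −0.861, −0.397 and 0.238, so the order of the genes held, while the value of ATP5G1 turned positive. With 1 library per fraction these differences could not be set against a spread.

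**Figure D3:**
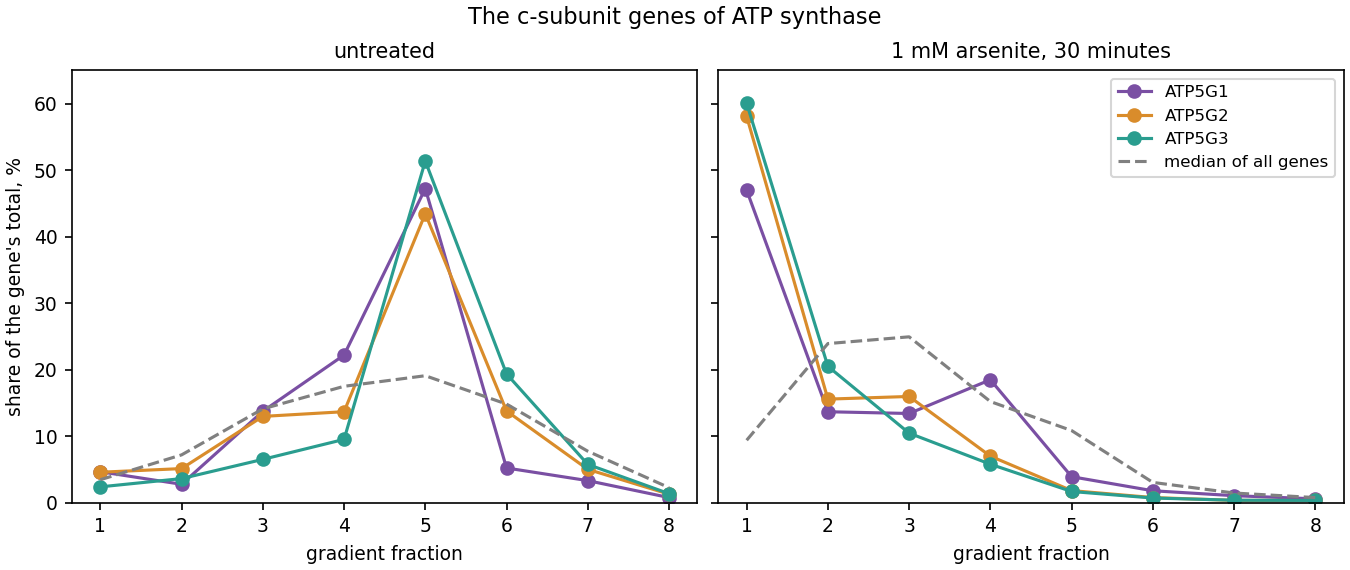
Shares (%) of ATP5G1, ATP5G2 and ATP5G3 in each fraction, untreated (left) and with arsenite (right), 1 library per point, with the median share over all genes (dashed). All 3 peak in fraction 5 untreated and in fraction 1 with arsenite, where ATP5G1 has 47.0% and a second high of 18.5% in fraction 4.

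Of the small membrane subunits of ATP synthase, ATP5J2 (subunit f) and ATP5L (subunit g) moved lower, with relative shifts of −1.13 (−1.903 under size factors) and −0.979 (−1.59 under size factors). Both lost the call with size factors, and without fraction 1 they lay at −0.0655 and −0.0563. ATP5I, which encodes subunit e, had the relative shift nearest to 0 among the ATP synthase genes with no 0, −0.146 (−0.951 under size factors). Untreated, its shares were 3.48, 4.94, 35.3, 39.5, 11.02, 3.30, 1.63 and 0.795%. After arsenite they were 40.04, 23.9, 28.2, 4.61, 1.65, 0.856, 0.447 and 0.301%. It kept more in arsenite fraction 3 than any other member with no 0. The sign of this small value turned without fraction 1, 4 or 5.

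Another 4 symbols that start with ATP5 are not core subunits. ATP5SL and ATP5S encode other mitochondrial proteins, with relative shifts of −0.655 (−1.10 under size factors) and −0.347 (−0.916 under size factors), and ATP5SL moved lower, while ATP5S did so with size factors only. ATP5J2-PTCD1 is a readthrough transcript that joins ATP5J2 to the next gene, so reads may be shared with ATP5J2. It lay at 5.07 and 3.42 (−0.198) and had 3.89% in arsenite fraction 1, the lowest share of any member, against 68.99% for ATP5J2. ATP5L2, a copy of ATP5L, was the only member that moved higher (0.809). It was listed at 0 in untreated fractions 1, 2 and 8 and in arsenite fractions 2, 3 and 8, and 45.2% of its arsenite total lay in fraction 4. With size factors it lay at 0.677 and no longer met the rule. Reads may be shared with ATP5L, so its value is uncertain.

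In untreated cells the members with longer coding sequences lay at higher fraction numbers. Annotated coding lengths, stop codon not counted, ran from 153 nt for ATP5E to 2247 nt for the readthrough ATP5J2-PTCD1, with a median of 366, against 1428 over all matched genes. Over the 39 members with no 0, which are not independent replicates and come from the same libraries, the Spearman correlation of coding length with untreated position was 0.84, and with arsenite position it was 0.39. Over the 13052 genes with an annotated length these values were 0.38 and 0.67, so the closer relation was with untreated position for the members and with arsenite position for all genes. Within complex III, from UQCR11 at 3.38 to UQCRC1 at 5.37, the correlation with untreated position was 0.98 over 10 genes. In complex IV it was 0.47 over 11 genes of more similar length, and in ATP synthase 0.81 over 18.

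The coding sequences of ATP5E and UQCR11 show how short the mRNAs at the low end are. They are printed whole, 5′ to 3′, with the start and stop codons in capitals.
ATP5E: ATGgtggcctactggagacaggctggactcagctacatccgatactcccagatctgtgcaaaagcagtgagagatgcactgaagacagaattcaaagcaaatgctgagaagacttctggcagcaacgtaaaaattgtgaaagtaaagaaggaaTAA
UQCR11: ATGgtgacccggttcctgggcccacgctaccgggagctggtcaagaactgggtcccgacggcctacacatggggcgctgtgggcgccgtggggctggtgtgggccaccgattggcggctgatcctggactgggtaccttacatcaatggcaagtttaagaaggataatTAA
These are again GENCODE release 29 transcripts on GRCh38, exonic parts of chr20:59030306-59032251 and chr19:1599440-1605409, both on the minus strand. In untreated cells these mRNAs had 12.8% and 11.95% of their totals in fractions 5 to 8. The much longer ATP5A1 (1659 nt) and ATP5B (1587 nt) had 80.7% and 84.3%.

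**Figure D4:**
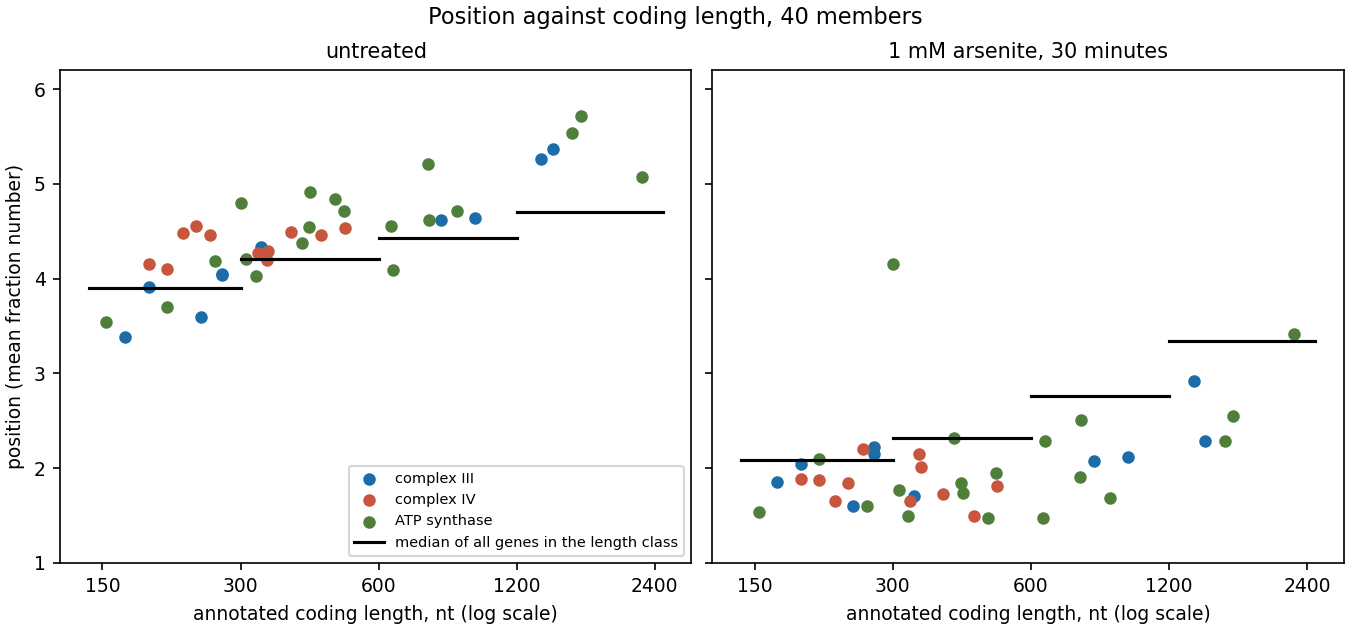
Position (mean fraction number) of the 40 members against annotated coding length in nt (log scale), untreated (left) and with arsenite (right), coloured by complex, 1 library per fraction. Bars give the median of all genes in each of 4 length classes; untreated members lie on both sides of the bars, and with arsenite 33 of 40 lie below them.

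Set against genes of similar coding length, the members differed most from the background above 300 nt. Up to 300 nt, 3 of 14 members moved lower (21.4%), against 19.3% of the 243 genes of this class, which is near the background. Above 300 and up to 600 nt it was 12 of 14 (85.7%) against 37.4%, above 600 and up to 1200 nt 6 of 7 (85.7%) against 30.9%, and above 1200 nt 4 of 5 (80%) against 18.7%. The untreated position is itself part of the shift, and genes that start at low numbers can fall by less. Of the 5 members with an untreated position under 4 none moved lower, against 2.24% of all such genes. From 4 to 4.5 it was 9 of 17 (52.9%) against 13.0%, from 4.5 to 5 11 of 12 (91.7%) against 26.4%, and above 5 5 of 6 (83.3%) against 52.2%. Within the lowest class, the median relative shift was −0.41 for the members and 0.58 for all genes.

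Compared as complexes, complex III had the smallest median relative shift, −0.717, with 5 of 10 genes moved lower (50%), against 24.0% of all genes. Complex IV had −1.16 and ATP synthase −1.13. With size factors the medians were −1.21, −1.58 and −1.903. These medians count UQCRHL (−0.371) and the 4 ATP5 symbols that are not core subunits (median −0.273). In the deposited shares each of these genes lay above the median of its complex. Leaving them out therefore lowers the medians of complex III and ATP synthase. Without UQCRHL, ATP5L2, ATP5S and ATP5SL, 5 of 9, 7 of 11 and 12 of 16 genes moved lower. Among coding sequences of up to 300 nt, the 5 complex III genes, UQCRHL included, had relative shifts from −0.546 to −0.0742, and the 5 complex IV genes had −1.38 to −0.771. With size factors these ranges, −1.27 to −0.420 and −2.14 to −1.30, did not overlap either, but without fraction 1 they did, at 0.147 to 0.550 and −0.183 to 0.157. The complex III genes of this class also started lower, at 3.38 to 4.05 against 4.10 to 4.56. With 1 library per fraction the difference between complexes was not tested.

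All 3 complex medians were under 0.5 in size when fraction 1 was left out. Fraction 1 was the largest arsenite fraction of 33 of the 40 members, so its removal takes away much of their total by construction. Without fraction 1 the median was 0.0439 for complex III, the opposite sign, −0.183 for complex IV and −0.397 for ATP synthase. Of the 10 complex III genes 5 then lay above 0, UQCRHL with its uncertain value among them, and 5 below. The middle of the complex III values fell between UQCRB (−0.0596) and UQCR10 (0.147). In this setting 15 members moved lower, against 21.0% of all genes, and 4 higher (ATP5E, UQCR11, UQCRHL and ATP5L2), against 21.0%. Of the 39 members with a negative relative shift 13 then turned positive. UQCRC1 kept a relative shift of −1.42 and ATP5A1 and ATP5B the values given above. Without fraction 5, the largest untreated fraction of 18 members, 16 members moved lower, against 24.4% of all genes, and the medians were −0.563, −0.675 and −0.732. The depth of the fraction 1 libraries is unknown. The median-of-ratios size factor was 0.453 for the untreated and 1.15 for the arsenite library, and the part of their relative weight in these results was not tested.

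**Figure D5:**
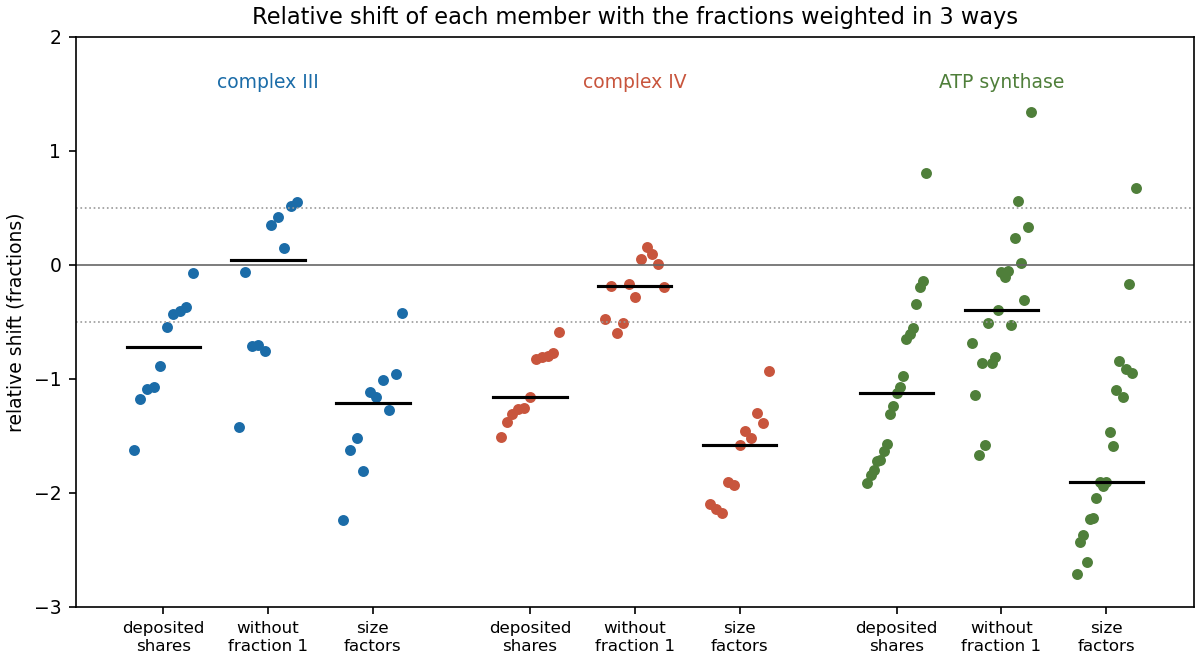
Relative shift in fractions of every member by complex, from the deposited shares, without fraction 1, and with median-of-ratios size factors; points are genes, bars are medians and dotted lines mark 0.5 fractions either way. Without fraction 1, 39 of the 40 points lie higher, and the complex III median goes from −0.717 to 0.0439, with 5 points above 0 and 5 below. With size factors all 3 medians lie lower than in the deposited shares.

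With arsenite, 12 of the 40 members (30.0%) had less in fraction 2 than in both fractions 1 and 3, so that the profile had a dip, against 8.03% of all genes. They were UQCRB, UQCRC2, UQCRH, UQCRHL, COX6B1, COX6C, COX7A2, COX7B, COX7C, ATP5E, ATP5G2 and ATP5I. In UQCRH the shares of fractions 1, 2 and 3 were 50.99%, 8.56% and 23.2%, and in COX6B1 49.6%, 11.6% and 17.7%. Of 73 cytosolic ribosomal protein mRNAs 62 had such a dip, of 37 complex I subunit mRNAs 11, and of 76 mitochondrial ribosomal protein mRNAs 14. With size factors the dip was present in 12 members and in 32.8% of all genes, so that the members were then near the background, while 64 of the 73 cytosolic ribosomal protein mRNAs had it.

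Another 3 genes encode subunits of these enzymes under symbols outside the rule. NDUFA4, now counted as a complex IV subunit, had a relative shift of −1.26 (−1.70 under size factors) and moved lower, though not with size factors. The small ATP synthase proteins C14orf2 and USMG5 lay at −0.766 (−1.39 under size factors) and −0.686 (−1.37 under size factors) and met neither rule. All 3 had over 50% of their totals in arsenite fraction 1, against 6.08% of all genes. Their coding sequences are under 300 nt, and for all genes up to 300 nt the median share in that fraction was 46.4%. CYCS, which encodes cytochrome c, the carrier between complexes III and IV, had a relative shift of −0.396 (−0.682 under size factors) and met neither rule. HCCS, which attaches heme to cytochrome c, moved lower (−1.62).

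Genes that assemble or regulate the complexes were counted in the same way. Of 6 complex III assembly genes none moved lower and LYRM7, a chaperone of the Rieske protein, moved higher (0.554), a share near the 23.6% of all genes. Their median relative shift was 0.235, from −0.725 (−1.42 under size factors) for MNF1 upwards. Of 21 complex IV assembly genes 7 moved lower (33.3%), against 24.0% of all genes, and none moved higher, with a median of −0.526 (−1.06 with size factors). The lowest was the copper chaperone SCO2 at −1.56 (−2.66 under size factors), listed at 0 in 1 library, and the highest COX10, which makes the heme precursor of the enzyme, at 0.208 (0.665 under size factors). Of 4 ATP synthase assembly and regulation genes 3 moved lower. ATPIF1, the inhibitor of ATP synthase, had the lowest value (−1.46), TMEM70 and ATPAF2 lay at −1.18 and −0.517 (−0.984 under size factors), and ATPAF1 was nearest to 0 (−0.400) and met neither rule.

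Other mRNA families with many small products were set beside the members. Of all genes 24.0% moved lower and 23.6% higher, and with size factors 26.4% and 28.7%. Of 37 complex I subunits 31 moved lower and none higher, with a median relative shift of −1.18, and with size factors 21 did, with a median of −1.91. Of 76 mitochondrial ribosomal proteins 66 moved lower and none higher, with a median of −0.993, and with size factors 56 did, with a median of −1.52. The 73 cytosolic ribosomal proteins have coding sequences of similar length (median 468 nt). Of these, 9 moved lower and 9 higher, 12.3% each way and so below the shares of all genes. Their median was −0.125 (−0.402 with size factors). Cytosolic ribosomal protein mRNAs started lower than the members, at a median position of 3.89, and lay at 2.25 with arsenite. These differences between families are descriptions of the same 16 libraries and were not tested.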

How the data were processed

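For total RNA of gradient fractions the labels' protocols name Trizol and the NSR method. The authors deposited 1 table of 13148 genes whose 16 library values are in the unit fraction (share of a gene's total over the 8 fractions of a gradient, summing to 1 within 2.2e-15) and 3 score columns with mean fraction numbers. Values refer to exons of RefSeq genes, per the file headers, and hg19 is the build named in the submitters' processing notes. The sources used here do not state aligner, counting, strand, filters or scaling between fractions, and depth is unknown, so no interval is given. Groups came from sample titles.

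Positions were computed from the shares (Python 3.11.15, numpy 2.4.6, pandas 2.3.3) and differed from the deposited scores by at most 1e-14. The call rule, a set threshold with a sign check, was applied to all genes alike and tested on simulated data. These held planted shifts and read-sampling noise only. They did not model the unknown depth or the scaling between fractions, so they do not show how reliable the calls are here. Alternatives were size factors, leaving out each fraction number, 1 percentage point added to each share, the point where 50% of the total is reached, genes with no 0, fewer members and thresholds of 0.25 and 1. Coding lengths are of 1 GENCODE release 29 transcript per gene, the principal isoform unless under 50% of the longest coding part. Symbols matched for 13052 genes (99.3%), 735 of them by an older symbol, all 40 members included. Every member is accounted for; shares in all libraries are given for 11 genes listed by symbol and for the members with the lowest and highest relative shift of each complex among those with no 0, and other members were named after their values were seen. Members and lists were chosen with earlier results of these data known. Complex I subunits are symbols starting with NDUF and A, B, C, S or V, without assembly factors, NDUFA4, NDUFA4L2 and a readthrough, which were removed after their values were seen.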

Additional observations from a re-analysis of the deposited data

How the results depend on the processing

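No paired analysis was possible because each group has 1 library and fraction numbers are not replicates, and no replicate could be left out. The count of members moved lower was 25 and within 1.5 times of it except without fraction 1 (15) or fraction 5 (16). The count moved higher was 1 (ATP5L2), and it was 4 without fraction 1, and 0 with size factors, without fraction 4 or 7, over genes with no 0, without copies and members that are not core subunits, also without the readthrough ATP5J2-PTCD1 (added after seeing the data), and at a threshold of 1 fraction. Median relative shifts kept their sign and stayed past 0.5 except without fraction 1. There complex III turned to 0.0439, with 5 genes above 0, the copy UQCRHL among them, and 5 below. Complex IV was then −0.183 and ATP synthase −0.397. Leaving out fractions removes libraries by construction, and the cause was not tested.

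Without fraction 1 the sign turned for ATP5E (0.558), ATP5G1 (0.238), ATP5I (0.333), ATP5S (0.0159), COX6B1 (0.0964), COX7A2 (0.0468), COX7C (0.157), COX8A (0.0106), UQCR10 (0.147), UQCR11 (0.550), UQCRH (0.423), UQCRHL (0.519) and UQCRQ (0.349). ATP5I also turned without fraction 4 (0.203), without fraction 5 (0.0606) and at the point of 50% of the total (0.0746), UQCR11 without fraction 4 (0.328) and fraction 5 (0.0892), and ATP5J2-PTCD1 without fraction 2 (0.124). With size factors no sign turned, 9 called members lost and 2 gained the call. Unknown depth limits every share, most of all those near 0.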
